A study of Homo sapiens with 6 samples.

Results

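Total RNA was sequenced from SK-N-BE, an established line of human neuroblastoma cells that retinoic acid drives towards a neuron-like state. All libraries came from this single line after 1.5 days in differentiation medium with 10 μM retinoic acid and reduced serum. In 3 libraries the cells had received a scrambled siRNA (si-SCR), and in 3 a pool of siRNAs (si-CyCoNP) against CyCoNP, a cytoplasmic long noncoding RNA of neural progenitors. The labels did not say whether replicates came from separate cultures, so p-values measure the spread between these libraries. The 46 genes described here code for proteins of the centromere and the kinetochore and for their regulators, and were chosen by symbol out of 60676 genes in the deposited tables. Earlier results of these data were known when the genes were chosen. The study had tested the CENPF mRNA in a pull-down of CyCoNP, and CENPF was known to be uneven among the si-SCR libraries. All 46 symbols matched a gene, and all 46 passed the expression filter (a group mean of 1 or more FPKM, fragments scaled to gene length and library total), which kept 13966 genes.

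The centromere is the chromosomal site at which the histone variant CENP-A replaces histone H3, and it is loaded by the chaperone HJURP after the MIS18 proteins have prepared the site. The inner kinetochore, a network of CENP proteins, sits on this chromatin and recruits the outer kinetochore, in which the NDC80 complex binds microtubules and the SKA complex strengthens that grip. The spindle checkpoint proteins hold back anaphase until every kinetochore is attached, and the chromosomal passenger complex corrects wrong attachments. Most of these genes are transcribed periodically, with their highest mRNA levels in G2 and mitosis, so their level in a bulk sample can follow the share of dividing cells. In bulk RNA, fewer cells that express a gene and less RNA per cell cannot be told apart.

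The libraries held 3762009 to 4799407 counted fragments, of which the 46 genes took 0.209%, 0.205% and 0.267% in the si-SCR libraries 1, 2 and 3 and 0.258%, 0.256% and 0.282% in those of si-CyCoNP. The si-SCR replicate 3 value thus lay inside the range of the si-CyCoNP libraries. The targeted gene LINC02381 had 274, 208 and 315 counts in si-SCR but 20, 30 and 12 in si-CyCoNP, so that its log2 fold change was -3.78 (standard error, SE, 0.190, edgeR quasi-likelihood test, adjusted p = 6.95e-14). Sympathoadrenal markers were expressed in every library, and 7 of 9 passed the test, 1 higher (MYCN, log2 fold change 0.84) and 6 lower, with CHGA (-1.24) and PHOX2A (-1.13) at the smallest p-values. Of these markers 11.1% were higher and 66.7% lower, against 14.2% and 14.2% of all tested genes. The summed level of the markers, in TMM-normalised CPM (counts scaled to library totals and corrected for composition, here normalised CPM), ran from 6436 to 7888 in si-SCR and from 5455 to 5834 in si-CyCoNP. The Schwann cell markers SOX10 and FOXD3 were at 0 in every library. Fibroblast markers summed to 44.7 to 73.0 in si-SCR and 56.0 to 60.6 in si-CyCoNP with PRRX1 at 0, blood cell markers to at most 0.549 with CD3E and LYZ at 0, and epithelial markers to at most 2.14 with CDH1, KRT5 and KRT14 at 0. Of the 4 fibroblast markers tested, 2 passed higher, COL1A1 (log2 fold change 1.68) and COL3A1 (2.83), and 1 passed lower, DCN (-0.82). The background was 14.2% of all tested genes in each direction, so the summed level did not show these changes of single markers. The part of these markers in the results below was not tested.

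Whether depletion of CyCoNP changes the mRNAs of this machinery was addressed first. In si-CyCoNP, 8 of the 46 genes were higher (ZW10, SKA2, BIRC5, ZWINT, CENPX, BUB1B, CENPP and CENPF) and 2 were lower (BUB3 and OIP5) at an adjusted p under 0.05 (edgeR, Benjamini-Hochberg over 13966 genes). This is 17.4% and 4.35% of the 46 genes, against a background of 14.2% of all tested genes higher and 14.2% lower. The share of higher genes was thus near the background and the share of lower genes below it. ZW10 alone also met the fold threshold of the study (log2 fold change above 1), which 2.28% of all genes met in this direction and 2.98% in the other (below -1). The median log2 fold change was 0.12 over the 46 genes and 0.01 over all tested genes, and 31 of the 46 values lay above 0 (67.4%, against 50.6% of all genes). With library totals in place of TMM the median was 0.19, where that of all genes was 0.07. The groups did not overlap for 11 of the 46 genes (8 higher and 3 lower), a share of 23.9%, against 40.2% of all tested genes.

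**Figure D1:**
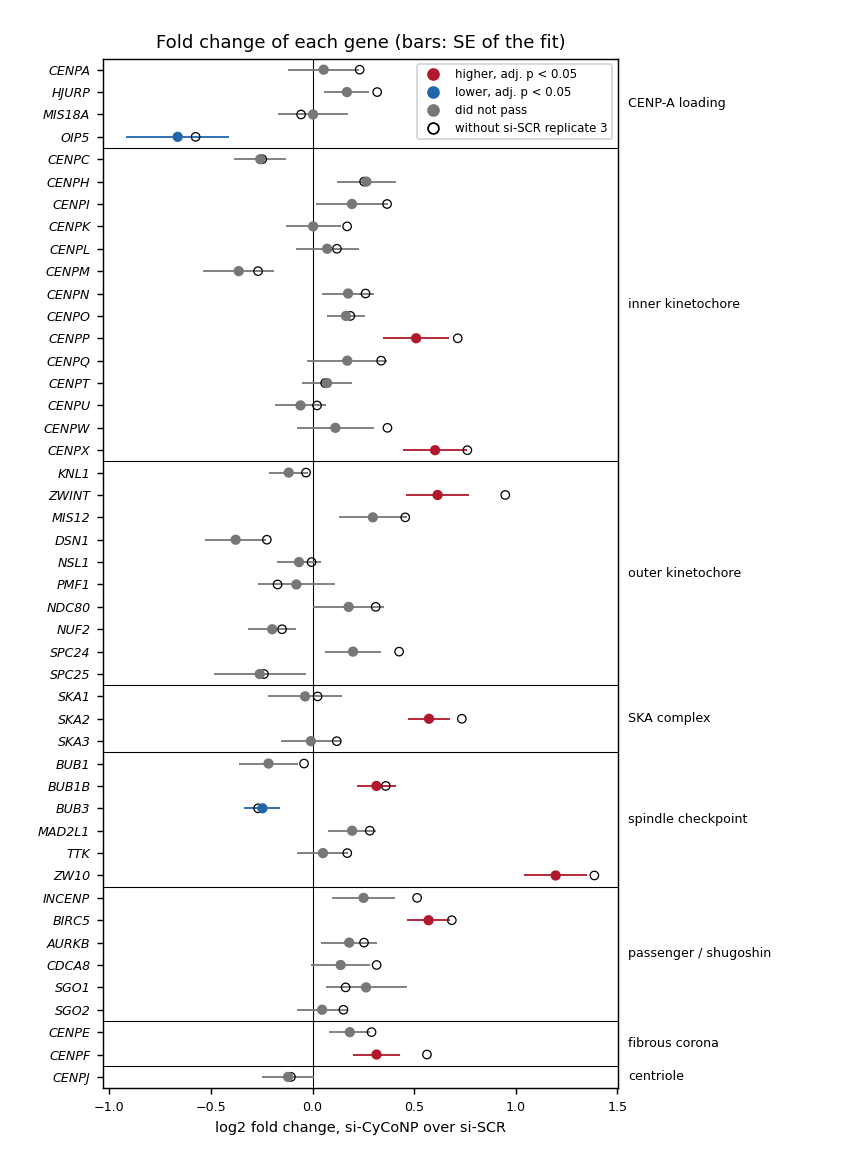
Log2 fold change of each of the 46 genes, si-CyCoNP over si-SCR, ordered by role; filled points are the fit with all 6 libraries, bars its standard error, and open points the fit without si-SCR replicate 3. ZW10 lies farthest right at 1.20, and for most genes the open point lies to the right of the filled one.

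The count of higher genes depended on single libraries. Without si-SCR replicate 3 it rose to 14 (30.4% of the 46 genes, against 15.4% of all genes tested in that fit), and the median to 0.21. The members added were HJURP, MIS12, SPC24, MAD2L1, INCENP and CENPE, and the 8 genes named above passed again. In each gene added, si-SCR replicate 3 was the highest si-SCR library. Leaving that library out raises their log2 fold changes by construction, so these calls are no separate support for a change. Without si-SCR replicate 2 or without si-CyCoNP replicate 3 the count was 5, with medians of 0.06 and 0.04. Compared library by library, 28 to 38 of the 46 genes were higher in a si-CyCoNP library than in si-SCR replicate 1 or 2, but 14 to 25 were higher than in si-SCR replicate 3. Against that library the median log2 ratio was -0.14, -0.17 and 0.04 for si-CyCoNP replicates 1, 2 and 3, whereas it ran from 0.08 to 0.32 against the other two.

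The cell cycle genes homology region (CHR) is a short element at the start sites of some genes. Complexes that bind it repress late cell cycle genes in resting cells and activate them in G2. The letters TTTGAA and TTCGAA, read on both strands, were searched from 250 bases before to 50 bases after the start (RefSeq, GRCh38.p14). Of the 46 genes, 38 had an entry (all but BIRC5, BUB3, CENPH, CENPL, CENPM, KNL1, MIS18A and TTK). A hexamer of these letters was in 21 of these 38 windows (55.3%), in 16.6% of 27305 windows of all genes and in 13.5% of 15326 windows of protein-coding genes. Among lists of like genes, it was in 14 of 19 windows of other G2 and M phase genes (73.7%) and in 7 of 20 windows of other centromere and kinetochore genes. The windows of 30 bases below are shown because these genes passed the test, or because CENPA marks the centromere itself, with the hexamer nearest the start in capitals and letters read in the direction of the gene.
CENPF, chr1:214603215-214603244, plus strand: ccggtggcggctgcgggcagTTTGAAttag
CENPA, chr2:26786026-26786055, plus strand: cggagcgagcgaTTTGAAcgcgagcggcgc
BUB1B, chr15:40161034-40161063, plus strand: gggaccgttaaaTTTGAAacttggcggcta
OIP5, chr15:41332573-41332602, minus strand: gcctggcgtgtaTTCGAAaggaaggcgccg
ZWINT, chr10:56361273-56361302, minus strand: gtcgactgtgacTTCAAAgtaatcttaggg
ZW10, chr11:113773899-113773928, minus strand: gaagcaacgaacTTTGAAaacaactaagga
In ZWINT the hexamer lies on the opposite strand, as TTCAAA. Its first base was at -31 in ZWINT, -23 in BUB1B, -18 in CENPA, 2 in OIP5 and 41 in CENPF relative to the start, but at -224 in ZW10. SKA2, CENPX and CENPP passed the test with no such hexamer in the window. The median log2 fold change was 0.16 over the 21 genes with the hexamer and 0.17 over the 17 without it. A match of letters is a description and not a binding site.

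CENP-A and its loading factors were the first group. CENPA, the centromeric histone, stood at 15.3, 18.7 and 23.2 normalised CPM in si-SCR and at 18.1, 20.5 and 21.2 in si-CyCoNP. The groups overlapped and the si-SCR libraries held both the lowest and the highest value. Its log2 fold change was 0.05 (SE 0.175, adjusted p = 0.853), and its exons share 7.08% of their bases with SLC35F6 on the same strand. HJURP (0.17, adjusted p = 0.284) and MIS18A (0.00, adjusted p = 0.994) did not pass. OIP5, which codes for the MIS18 partner MIS18-beta, stood at 12.4, 7.95 and 12.1 in si-SCR and at 7.12, 8.20 and 5.23 in si-CyCoNP. The lowest si-SCR library lay below the highest si-CyCoNP library, and the log2 fold change was -0.66 (SE 0.253, adjusted p = 0.0498). That call was lost when si-SCR replicate 1 or 3 or si-CyCoNP replicate 1 or 3 was left out (adjusted p = 0.152, 0.114, 0.0855 and 0.190) and in DESeq2 (adjusted p = 0.124), and 4 of 15 alternative fits kept it. OIP5-AS1, whose exons cover 63.2% of the exon bases of OIP5 on the opposite strand, was also lower (-0.34, adjusted p = 0.00719), at 163, 171 and 183 normalised CPM in si-SCR against 117, 137 and 154. Its part in the count of OIP5 was not tested.

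The inner kinetochore, the constitutive centromere-associated network, was measured through 14 genes. CENPX and CENPP were higher, none was lower, and 11 of the 14 log2 fold changes were above 0 (median 0.14). The share higher was 14.3%, near the 14.2% of all tested genes, and the share above 0 was 78.6%, against 50.6%. CENPX, a small histone-fold protein that binds DNA with CENP-S, CENP-T and CENP-W, stood at 16, 20.3 and 24 normalised CPM in si-SCR and at 29.5, 28.7 and 34 in si-CyCoNP. Every si-CyCoNP library lay above every si-SCR library, and the log2 fold change was 0.60 (SE 0.158, adjusted p = 0.00480), which stayed under the threshold in 15 of 15 alternative fits. CENPP, a subunit of the CENP-O group that brings in the mitotic kinase PLK1, stood at 18.9, 21.4 and 28.8 in si-SCR and at 29.3, 30.8 and 39.5 in si-CyCoNP. Its groups nearly touched, with a log2 fold change of 0.51 (SE 0.162, adjusted p = 0.0185). The call was lost without si-SCR replicate 1 or 2 or without si-CyCoNP replicate 3 (adjusted p = 0.0910, 0.0592 and 0.139), in DESeq2 (adjusted p = 0.0501) and in limma at both pseudocounts (adjusted p = 0.102 and 0.103), and 9 of 15 alternative fits kept it. Exons of IPPK on the opposite strand cover 39.9% of the exon bases of CENPP, and IPPK itself did not pass (0.20, adjusted p = 0.359).

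The remaining 12 genes of the inner kinetochore did not pass, with log2 fold changes from -0.36 for CENPM to 0.27 for CENPH. CENPC, which links the centromeric nucleosome to the outer kinetochore, was one of 2 genes of the inner kinetochore besides those that passed whose groups did not overlap, at 36.8, 34.8 and 36.8 normalised CPM in si-SCR against 30.9, 30.8 and 29 in si-CyCoNP (-0.26, adjusted p = 0.139). The other was CENPO, at 101, 86.7 and 98.6 against 107, 106 and 108 (0.16, adjusted p = 0.205). CENPW, the histone-fold partner of CENP-T, was among the 5 genes most uneven in si-SCR, at 14.8, 14 and 22.4 against 16.5, 18.7 and 20.9 in si-CyCoNP (0.11, adjusted p = 0.709). Its highest library was si-SCR replicate 3. Values for the others were 0.19 for CENPI, 0.00 for CENPK, 0.07 for CENPL, 0.17 for CENPN, 0.17 for CENPQ, 0.07 for CENPT and -0.06 for CENPU.

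The outer kinetochore had 10 genes, of which ZWINT alone passed, and 6 of the 10 log2 fold changes lay below 0 (median -0.07). The share higher was 10.0%, against 14.2% of all tested genes, and the share above 0 was 40.0%, against 50.6%. ZWINT binds the scaffold KNL1 and holds the ROD-ZW10-Zwilch complex at the kinetochore. It stood at 32.2, 29.1 and 53.5 normalised CPM in si-SCR and at 59.2, 55.2 and 63.9 in si-CyCoNP. The groups did not overlap, but si-SCR replicate 3 lay 1.75 times above the mean of the other two si-SCR libraries and just under the lowest si-CyCoNP library. Its log2 fold change was 0.61 (SE 0.154, adjusted p = 0.00316), 0.95 without si-SCR replicate 3, and it did not pass with limma on log2(FPKM + 1) or log2(FPKM + 0.1) (adjusted p = 0.0666 and 0.0658).

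The NDC80 complex, a rod of 4 subunits in equal number in the protein, was uneven at the mRNA level. Per length, SPC24 and NUF2 stood at 22.2 and 16.1 FPKM over the 6 libraries and NDC80 and SPC25 at 5.17 and 5.89, a ratio of 4.28 between the highest and the lowest subunit. The same ratio was 2.16 in the MIS12 complex, 6.55 in the SKA complex and 7.44 in the inner kinetochore, so such unevenness was not particular to the NDC80 complex. SPC24 stood at 43.8, 56.2 and 74.4 normalised CPM in si-SCR and at 59.6, 65.9 and 76.3 in si-CyCoNP (log2 fold change 0.20, adjusted p = 0.319). It passed without si-SCR replicate 3 (0.43, adjusted p = 0.00326), its highest si-SCR library, whose omission raises the value by construction. NDC80 (0.18), NUF2 (-0.20) and SPC25 (-0.26) did not pass. In the MIS12 complex, which joins the inner to the outer kinetochore, MIS12 stood at 22.5, 15.4 and 25.5 in si-SCR and at 28.1, 23.7 and 26.9 in si-CyCoNP (0.30, adjusted p = 0.206). It gave 0.46 (adjusted p = 0.0405) without si-SCR replicate 3, again its highest si-SCR library. DSN1 did not overlap between the groups, at 27.6, 26.3 and 35.7 against 24.4, 23.0 and 21.9, with a log2 fold change of -0.38 (adjusted p = 0.0606). KNL1 (-0.12), NSL1 (-0.07) and PMF1 (-0.08) did not pass, and PMF1 shares 23.3% of its exon bases with PMF1-BGLAP on the same strand.

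The SKA complex had its change in SKA2 alone, and SKA2 was the most abundant of the 46 genes per length, at 40.9 FPKM over the 6 libraries, against 6.24 for SKA1 and 9.19 for SKA3. SKA2 stood at 89.9, 99 and 127 normalised CPM in si-SCR and at 149, 155 and 168 in si-CyCoNP. The groups did not overlap. The log2 fold change was 0.57 (SE 0.105, adjusted p = 0.000124), it passed in 15 of 15 alternative fits, and it ran from 0.47 to 0.73 over them. SKA1 (-0.04, adjusted p = 0.907) and SKA3 (-0.01, adjusted p = 0.975) did not pass.

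Among 6 spindle checkpoint genes, ZW10 and BUB1B were higher and BUB3 was lower. These shares were 33.3% higher and 16.7% lower in a small group, against 14.2% and 14.2% of all tested genes. ZW10 is a subunit of the ROD-ZW10-Zwilch complex, which brings dynein and the MAD1-MAD2 pair to kinetochores, and it also acts in transport between endoplasmic reticulum and Golgi. It stood at 15.0, 14.5 and 20.7 normalised CPM in si-SCR and at 39.1, 36.0 and 41.4 in si-CyCoNP. The lowest si-CyCoNP library lay well above the highest si-SCR library. The log2 fold change was 1.20 (SE 0.154, adjusted p = 8.56e-07), a 2.29-fold higher level, and it ran from 1.11 to 1.39 over the 15 alternative fits. Per length, ZW10 rose from 5.63 ± 1.28 to 13.6 ± 0.825 FPKM (SD, n = 3). The gene (ENSG00000086827) lies on the minus strand of chromosome 11 from 113733187 to 113773735 (GRCh38), and none of its exons was shared with another annotated gene.

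BUB1B codes for BUBR1, a component of the mitotic checkpoint complex that inhibits the anaphase-promoting complex. It stood at 77.8, 77.9 and 85.7 normalised CPM in si-SCR and at 95.5, 96.6 and 109 in si-CyCoNP, with no overlap (log2 fold change 0.31, SE 0.0964, adjusted p = 0.0149). The call was lost without si-SCR replicate 2 or without si-CyCoNP replicate 3 (adjusted p = 0.0579 and 0.105). BUB3, which carries BUB1 and BUBR1 to the KNL1 scaffold, stood at 146, 137 and 137 in si-SCR and at 115, 111 and 128 in si-CyCoNP. It had the narrowest si-SCR range of the 10 genes that passed and moved against BUB1B, with a log2 fold change of -0.25 (SE 0.0888, adjusted p = 0.0376). That call was lost without si-SCR replicate 1 or 2 or si-CyCoNP replicate 1 or 2 (adjusted p = 0.110, 0.0683, 0.128 and 0.157) and in DESeq2 (adjusted p = 0.0598), and 6 of 15 alternative fits kept it. The kinases BUB1 (-0.22) and TTK (0.05) and the checkpoint effector MAD2L1 (0.19) did not pass.

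**Figure D2:**
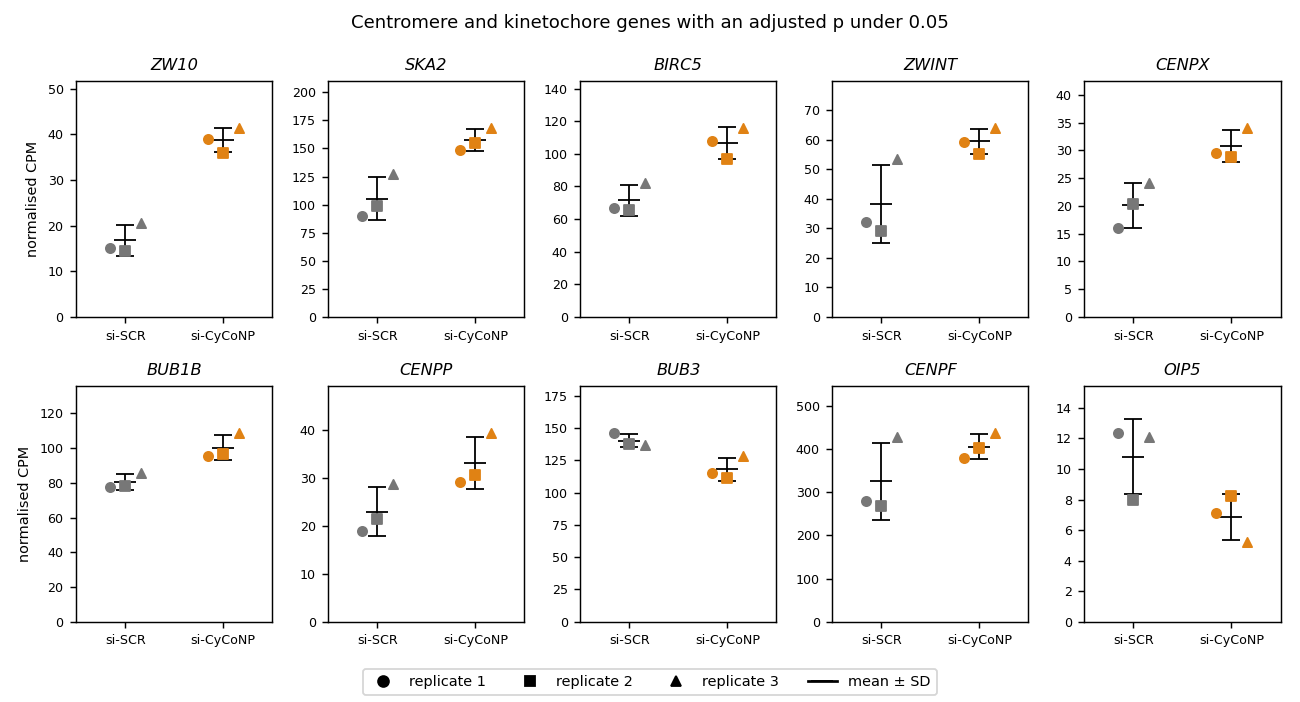
Normalised CPM in each library of the 10 genes that passed the test, with each replicate as a point and the mean ± SD over 3 libraries as bars; each panel has its own axis from 0. Groups were apart in 8 panels and overlapped in CENPF and OIP5, and si-SCR replicate 3 (triangle) was the highest si-SCR library in all but BUB3 and OIP5.

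The chromosomal passenger complex and the shugoshins, which protect cohesion at the centromere, had 6 genes. All 6 log2 fold changes were above 0 (median 0.22), as were 50.6% of those of all tested genes. BIRC5, or survivin, which places the complex at the inner centromere, was the one gene to pass (16.7%, against 14.2% of all tested genes higher). It stood at 67.1, 65.3 and 82.3 normalised CPM in si-SCR and at 108, 96.6 and 116 in si-CyCoNP. The groups did not overlap, and the log2 fold change was 0.57 (SE 0.105, adjusted p = 0.000137), which passed in 15 of 15 alternative fits. INCENP, the scaffold of the complex, was uneven in both groups, at 35.4, 30.4 and 52.0 against 39.7, 54.9 and 47.5 (0.25, adjusted p = 0.252). It passed without si-SCR replicate 3 (0.51, adjusted p = 0.00170), its highest si-SCR library, whose omission raises the value by construction. The kinase AURKB (0.18), CDCA8, or borealin (0.14), SGO1 (0.26) and SGO2 (0.05) did not pass. Per length, BIRC5 was the most abundant of the 4 subunits at 23.5 FPKM and INCENP the least at 9.77.

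The fibrous corona forms on kinetochores that have not yet captured microtubules. CENPF, its large coiled-coil protein, was second in abundance per length among the 46 genes at 31.4 FPKM over the 6 libraries, and lies on chromosome 1 from 214603185 to 214664574 (GRCh38, plus strand). It stood at 279, 268 and 428 normalised CPM in si-SCR and at 378, 401 and 437 in si-CyCoNP. The si-SCR replicate 3 value lay above those of si-CyCoNP replicates 1 and 2, so that the groups overlapped, and it was 1.56 times the mean of the other two si-SCR libraries. In si-SCR the highest library was 1.60 times the lowest and in si-CyCoNP 1.15 times. The log2 fold change was 0.31 (SE 0.116, adjusted p = 0.0435). With the replicate number as a block in edgeR it was 0.34 (SE 0.0724, adjusted p = 6.88e-05), although a pairing of the libraries is not established. Of 15 alternative fits, 7 kept the call. It was lost without si-SCR replicate 1 or 2 or si-CyCoNP replicate 2 or 3 (adjusted p = 0.142, 0.243, 0.0955 and 0.143) and in DESeq2 (adjusted p = 0.354). Without si-SCR replicate 3 it rose to 0.56 (adjusted p = 3.99e-10). CENPF was known to be uneven among si-SCR libraries, and leaving out its highest control raises the value by construction. This rise is thus no separate support for a change. CENPE, the kinesin motor of the corona, did not pass (0.18, adjusted p = 0.194). It passed without si-SCR replicate 3 (0.29, adjusted p = 0.0220), its highest si-SCR library too. CENPJ, which shares the CENP name but works at the centriole, did not pass (-0.12, adjusted p = 0.524).

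**Figure D3:**
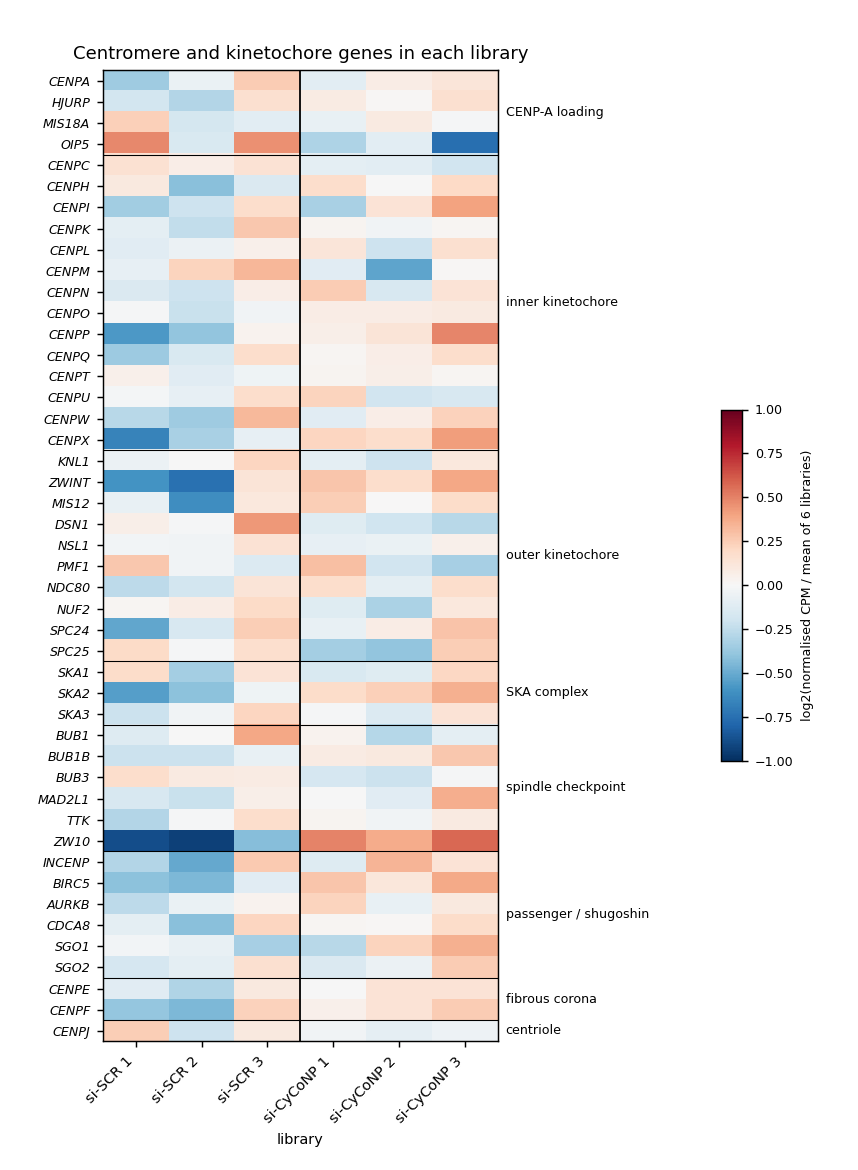
Level of each of the 46 genes (rows, by role) in each library (columns), as log2 of normalised CPM over the mean of the gene in 6 libraries; red is above and blue below that mean. The column of si-SCR replicate 3 is redder than those of si-SCR replicates 1 and 2, and ZW10 stands apart by group.

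As for CENPF, replicate 3 was the highest si-SCR library for most of these genes, but the size of the spread was less shared. The ratio of highest to lowest si-SCR library was 1.60 for CENPF. Its median was 1.35 over the 46 genes and 1.29 over all tested genes. Replicate 3 held the highest si-SCR level for 34 of the 46 genes (73.9%), against 34.5% of all tested genes, replicate 1 for 12 and replicate 2 for 0. Its level was 1.23 times the mean of the other two in the median over the 46 genes, against 1.00 over all tested genes. With library totals alone these values were 39 genes and 1.27 times, and with DESeq2 size factors 34 genes and 1.22 times. The 5 genes with the widest si-SCR range were ZWINT (1.84 times from lowest to highest), INCENP (1.71), SPC24 (1.70), MIS12 (1.66) and CENPW (1.60), and in each of them replicate 3 was highest. BUB3 (1.07 times) and CENPC (1.06 times) had narrow ranges. In si-CyCoNP, replicate 3 was also the highest library for 30 of the 46 genes (65.2%, against 34.4% of all genes), and it was highest in both groups for 24 (52.2%, against 14.4%).

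Other cell cycle genes were compared from lists that do not share members with the 46, against the same background of 14.2% of all genes higher and 14.2% lower. Of 23 further centromere and kinetochore genes, 21 were tested, 2 were higher (among them BOD1, 0.34) and 2 lower (CLASP2, -0.69, and SPDL1, -0.32), with a median of -0.08. Of 25 other G2 and M phase genes, 23 were tested, none was higher at an adjusted p under 0.05 in edgeR and 4 were lower, among them CDC25B (-0.41), MYBL2 (-0.29) and ASPM (-0.23), with a median of -0.11. At an unadjusted p under 0.05, 7 of these 23 (30.4%) passed in either direction, against 37.4% of all tested genes. Of 25 G1/S and replication genes, all were tested, 7 were higher (28.0%), among them RRM1 (0.56), UNG (0.69) and CDC45 (0.73), and 1 was lower, with a median of 0.15. Replicate 3 held the highest si-SCR level for 12 of 21, 21 of 23 and 24 of 25 genes of these lists. CENPF, BUB1B and BIRC5 are G2 and M phase genes that were higher, while no other gene of that phase on the list passed in the same direction, a difference that was not tested. Without si-SCR replicate 3, 4, 2 and 14 genes of these lists (19.0%, 8.70% and 56.0% of those tested) were higher, against 15.4% of all genes, and 3, 3 and 1 lower. That library was the highest si-SCR library for most genes of each list, so its omission raises their values by construction. These counts are thus no separate support for a change.

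**Figure D4:**
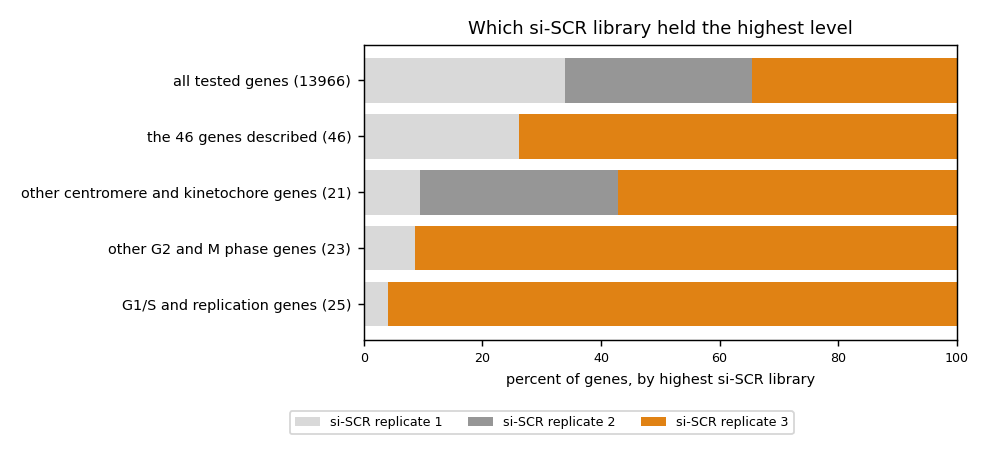
Share of genes, in percent, whose highest si-SCR level lay in replicate 1, 2 or 3, for all tested genes, the 46 genes and 3 further lists, with the number tested in parentheses. Replicate 3 takes 34.5% of all genes, 73.9% of the 46 genes and 96.0% of the G1/S and replication genes.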

How the data were processed

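Per the labels and methods, the deposited counts were made by the authors with STAR 2.7.7a, which assigned uniquely mapping fragments to genes of the Ensembl annotation on GRCh38. Reads had been trimmed (Trimmomatic 0.39, Cutadapt 3.2) and cleared of ribosomal sequence (Bowtie2 2.4.2). Genes with near-identical copies are thereby undercounted. The deposited FPKM were made by the authors from the same counts, since 22586 of 22586 genes gave 1 length in every library within 0.1%. A count above 0 was found for 29.3% of 764 genes covered by exons on the other strand and for 7.27% of 991 covered on their own strand, so the counting used strand.

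The expression filter was a mean of 1 FPKM in at least 1 of the groups. Counts were scaled with TMM and tested by quasi-likelihood in edgeR 4.0.16 (R 4.3.3), while the study used DESeq2, run here as an alternative (1.42.0). Adjustment was by Benjamini-Hochberg across 13966 genes, and the SE is the log2 fold change over the root of the F statistic. Further alternatives were size factors of DESeq2, the upper quartile or plain totals as scaling in edgeR, its default filter or no filter, a replicate block, the omission of each library, and limma 3.58.1 on log2 FPKM. Positions are from a later annotation of the same build.

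The genes, roles, lists and tests were chosen with earlier results of these data known. Values in every library were given, by rule, for CENPF, CENPA, the genes that passed, the 3 most abundant and the 5 most uneven in si-SCR, and from each other list at most 3 genes of smallest p were named. CENPC, CENPO, DSN1, the genes added without si-SCR replicate 3 and the markers at 0 were named after values were seen. Values of some list genes are not reported here.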

Additional observations from a re-analysis of the deposited data

How the results depend on the processing

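The count of higher genes among the 46 was 8 in the reported fit and 6 to 8 with DESeq2, other scalings, other filters or the replicate block. It was 5 with limma at a pseudocount of 1 FPKM and 5 at 0.1, and 5 to 14 when single libraries were left out. The count of lower genes was 2 and fell to 1 with upper quartile scaling and with the default filter of edgeR. It was 0 in DESeq2 (2 at an unadjusted p under 0.05), 0 in edgeR with library totals alone (1 unadjusted), 0 in edgeR with no filter (4 unadjusted), and 0 with limma at either pseudocount (2 unadjusted in each). It was 0 to 2 when single libraries were left out, the 0 without si-CyCoNP replicate 1 (4 unadjusted). ZW10 alone passed the fold threshold in each of the 15 alternatives, and the median log2 fold change of the 46 genes stayed between 0.04 and 0.23. When single libraries were left out, the log2 fold change of CENPA ran from -0.082 to 0.23 and that of CENPW from -0.0043 to 0.37, the negative values without si-SCR replicate 1 and without si-SCR replicate 2. The cause was not tested. The change of LINC02381 kept its direction and passed under all 15 alternatives.

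With the replicate number as a block, 8 genes were higher and 3 lower. Deviations of libraries with the same number correlated at 0.0907, 0.0727 and 0.108, which does not establish a pairing, although every library correlated best with its own number. OIP5 had 22 to 58 counts in each library, and its SE of 0.253 was the widest among the 10 that passed. The part of depth in this was not tested.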

Other observations

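ZW10 lies in a region of chromosome 11 that also holds NCAM1, which codes for a neural cell adhesion molecule and is central to the study. The tested genes within 1 Mb of ZW10 were examined after their values had been seen. NCAM1, which ends 455 kb from ZW10, was lower in si-CyCoNP (log2 fold change -1.11, SE 0.104, adjusted p = 5.35e-09), and DRD2, a dopamine receptor gene 257 kb away, was also lower (-0.43, SE 0.143, adjusted p = 0.0240). TTC12, between NCAM1 and DRD2, gave -0.02 (adjusted p = 0.967). USP28, 24.1 kb from ZW10 on its other side, gave 0.00 (adjusted p = 0.996), so that neither tested protein-coding neighbour on either side was higher. C11orf71, 618 kb away, was higher (0.84, SE 0.252, adjusted p = 0.0126), while RBM7, which overlaps it on the other strand, gave 0.38 (adjusted p = 0.0921).

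Letters of other elements were counted in the promoter windows of the 38 genes with an entry. The letters CCAAT, read on both strands, were in 25 of the 38 (65.8%), against 35.7% of all windows and 36.6% of those of protein-coding genes. The share was 78.9% in other G2 and M phase genes, 65.0% in G1/S and replication genes and 40.0% in other centromere and kinetochore genes. The level of si-SCR replicate 3 over the mean of the other si-SCR libraries was 1.35 in the median of the genes with CCAAT and 1.14 in that of the 13 genes without it. For the CHR hexamers the medians were 1.26 with and 1.33 without. The E2F letters TTTCCCGC, TTTGGCGC and TTTCGCGC were in 4 of the 38 windows (10.5%), against 2.79% of all windows and 55.0% of those of G1/S and replication genes. The median log2 fold change was -0.0026 over those 4 genes and 0.17 over the other 34. These are descriptions of these libraries with no test.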
